A study of Homo sapiens with 6 samples.

Results

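TXNIP, its relatives among the α-arrestins, the thioredoxins and MLXIP were examined in DU145 cells, a human line from metastatic castration-resistant prostate cancer. The group consisted of 6 genes, TXNIP, ARRDC4, ARRDC3, TXN, TXN2 and MLXIP, all of which were found among the 27381 genes of the deposited table. It was chosen by the measured values themselves, namely the low FPKM of TXNIP in the column labelled RCC2 KO, so the differences in TXNIP are given as a description and are not tested. All 6 genes came to 1 FPKM or more somewhere in the table and were therefore among the 12822 genes compared. ARRDC4 did so only in the column labelled CD24 KO, the column in which it is highest.

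The labels give 2 libraries to scrambled control cells (Scr), 2 to cells with CD24 knocked out and 2 to cells with RCC2 knocked out. Per the study's methods, knockout clones were grown from GFP-sorted cells that had received a plasmid with Cas9 and sgRNAs, the controls received a scrambled sgRNA, and all were DU145 cells kept in DMEM. No other allele or agent is named, and whether the libraries of a condition came from different clones is not stated in the labels. The authors deposited 1 FPKM value per gene and condition, a measure that corrects the fragments of a gene for its transcript length and for the library total, so levels can be compared between genes. The column for RCC2 KO may hold 1 library or both, because it is named exactly as the first of these libraries is described. No spread between libraries, p-value or test can be given, no difference below has a replicate check, and the depth is unknown.

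The RNA of the targeted genes did not follow the labels. CD24 stood at 93.2 FPKM in Scr against 309 in the column labelled CD24 KO and 214 in that labelled RCC2 KO. RCC2 was at 37.8, 14.2 and 41.8 FPKM in the same order. The paper reports that its knockout clones were checked in their DNA and for the targeted protein. RNA levels measure neither, and whether the columns carry the right labels was not tested. Every direction given for CD24 KO or RCC2 KO is therefore that of the column so labelled. Markers of the line were present, with KRT8 between 149 and 348 FPKM, VIM between 540 and 605 FPKM and EPCAM between 44.9 and 58.9 FPKM. KLK3, which DU145 cells are known to lack, was listed at 0 in all 3 columns, and the 6 markers of leukocytes, endothelium and fibroblasts (PTPRC, CD3E, MS4A1, PECAM1, COL1A1 and DCN) had at most 0.678 FPKM. In the column labelled CD24 KO, KRT8 and KRT18 were also at least 2-fold lower than in Scr, by log2 differences of -1.17 and -1.05, and CDH1 was higher, at 52.6 FPKM against 27.9 in Scr and 23.7 in RCC2 KO. KRT8 and KRT18 share a locus in the table, and with quantile normalization both were within 2-fold, at -0.98 and -0.85. The part of this in the values below was not tested.

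Thioredoxin (TXN in the cytosol and nucleus, TXN2 in mitochondria) keeps protein thiols reduced and passes electrons to peroxiredoxins and ribonucleotide reductase. TXNIP binds reduced thioredoxin and holds back its activity, and like its close relative ARRDC4 it also lowers glucose uptake by drawing glucose transporters from the cell surface. Both genes are induced when glucose is plentiful by MondoA, the product of MLXIP, which binds DNA with its partner MLX. ARRDC3 is another α-arrestin, an adaptor between membrane proteins such as integrin β4 and ubiquitin ligases of the NEDD4 family.

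Promoter sequences were taken from RefSeq (GRCh38.p14) for 5 of the 6 genes, and TXN2 had no entry. The windows of TXNIP and ARRDC4 are shown because these genes are the best known targets of MondoA and because they differed in the data. Each runs from 250 bases before to 50 bases after the annotated start, 5′ to 3′ on the gene's strand, with capitals marking every match to CACGNG on either strand, the core of the element that MondoA and MLX bind. TXNIP lies at chr1:145996530-145996829 on the minus strand and ARRDC4 at chr15:97960453-97960752 on the plus strand.
TXNIP: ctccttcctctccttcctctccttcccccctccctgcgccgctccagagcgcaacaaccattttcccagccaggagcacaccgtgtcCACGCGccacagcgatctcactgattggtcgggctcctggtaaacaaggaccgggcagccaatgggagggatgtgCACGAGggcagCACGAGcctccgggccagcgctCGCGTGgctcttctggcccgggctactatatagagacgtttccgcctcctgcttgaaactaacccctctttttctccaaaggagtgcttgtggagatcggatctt
ARRDC4: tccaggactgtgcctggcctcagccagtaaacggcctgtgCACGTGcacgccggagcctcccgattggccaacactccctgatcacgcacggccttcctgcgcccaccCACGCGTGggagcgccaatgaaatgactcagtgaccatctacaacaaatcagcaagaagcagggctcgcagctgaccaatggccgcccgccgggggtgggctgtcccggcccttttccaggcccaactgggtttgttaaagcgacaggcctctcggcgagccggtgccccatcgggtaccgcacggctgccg

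The TXNIP window held 4 matches to CACGNG, a number reached by 0.524% of windows, and those at positions -88 and -77 from the start were separated by exactly 5 bases, the spacing of a carbohydrate response element. Among 35116 promoter windows of the same length, 20 (0.0570%) held such a pair in the same orientation, whereas at least 1 match to CACGNG was present in 30.5%. Between the pair and the most distant match lay CCAAT on the plus strand at -105 and on the minus strand at -140. At least 2 matches to CCAAT were present in 10.8% of windows. The window of the other TXNIP start, at chr1:145995695-145995994, held neither motif. The ARRDC4 window held 3 matches to CACGNG, of which the match at -210 is also the full E-box CACGTG (in 7.26% of windows) and those at -142 and -140 overlap each other. It held no pair at the spacing of 5 bases and 3 matches to CCAAT, a number reached by 3.26% of windows. TXN and the downstream start of ARRDC3 had 1 match to CACGNG each, and the upstream start of ARRDC3 and the window of MLXIP had 0. These matches describe letters in the windows and not binding in these cells.

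TXNIP had lower RNA in both knockout columns than in Scr, and in RCC2 KO no other member lay as far from Scr. The authors' values for TXNIP were 82.9 FPKM in Scr, 34.7 FPKM in the column labelled CD24 KO and 7.52 FPKM in the column labelled RCC2 KO. Scr was thus highest and RCC2 KO lowest, with CD24 KO between them. As a ratio of FPKM, TXNIP was 11.0-fold lower in RCC2 KO and 2.38-fold lower in CD24 KO than in Scr, and 4.62-fold lower in RCC2 KO than in CD24 KO. On the scale used for all genes, the difference of log2(FPKM + 1), these values were -3.30, -1.23 and -2.07. A gene is called at least 2-fold lower or higher below where this difference reached 1 in size. In such bulk RNA, fewer cells with TXNIP RNA and less TXNIP RNA per cell cannot be told apart. TXNIP stood at rank 969 of the 12822 genes by level in Scr, at rank 2358 in CD24 KO and at rank 7529 in RCC2 KO. Counted from the lowest difference between RCC2 KO and Scr, TXNIP was number 11 of all genes compared, number 3 of the 12737 genes above 0 in every column, and number 1 of the 11663 of these with a protein-coding symbol. In CD24 KO against Scr it was number 185 of the genes compared. The ranks in RCC2 KO rest on the TXNIP value by which the group was chosen, so they are not a separate observation. They moved with each narrowing of the gene set. The limit to genes above 0 in every column was added after the data had been seen.

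ARRDC4, the α-arrestin closest to TXNIP in regulation, had 0.109 FPKM in Scr against 1.53 in the column labelled CD24 KO and 0.207 in that labelled RCC2 KO. Its highest value was thus in CD24 KO, where TXNIP was below Scr. The differences of log2(FPKM + 1) were 1.19 for CD24 KO against Scr, 0.12 for RCC2 KO against Scr and -1.07 between RCC2 KO and CD24 KO. At such low levels the size depends on the pseudocount, and with 5 in place of 1 the difference in CD24 KO was 0.35 and no longer 2-fold. Under the alternative of 0.1 it was 2.96.

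ARRDC3 was at 51.5 FPKM in Scr, with 56.8 in CD24 KO and 37.9 in RCC2 KO. These levels lay within a far narrower range than those of TXNIP, with log2 differences from Scr of 0.14 for CD24 KO but -0.43 for RCC2 KO. In Scr, TXNIP was 1.61 times as high as ARRDC3, whereas ARRDC3 was 1.63 times as high as TXNIP in CD24 KO and 5.04 times as high in RCC2 KO. The table gives ARRDC3-AS1, a transcript of the opposite strand, the same locus as ARRDC3, but its values were 0.178 FPKM or lower.

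The thioredoxins themselves showed smaller differences. TXN was among the most abundant RNAs, at 411 (Scr), 268 (CD24 KO) and 436 FPKM (RCC2 KO). Its lowest level was in CD24 KO, at a log2 difference of -0.61 (-0.44 with quantile normalization), and its level in RCC2 KO differed from Scr by 0.08. GENCODE 29 names 7 pseudogenes of TXN, between which and TXN fragments could have been divided. TXN2 was at 44.9, 45.6 and 46.8 FPKM in Scr, CD24 KO and RCC2 KO, the narrowest range of the 6 genes as a ratio of FPKM. Its log2 difference in CD24 KO was 0.02, and 0.18 with quantile normalization. The ratio of TXN to TXNIP was 4.96 in Scr, 7.72 in CD24 KO and 57.9 in RCC2 KO. The ratio was thus highest in RCC2 KO, where TXNIP was lowest. This ratio, like that to ARRDC3 above, carries the TXNIP values by which the group was chosen and is not a separate observation.

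MLXIP, which encodes MondoA, was at 9.18 FPKM in Scr against 6.30 in CD24 KO and 10.6 in RCC2 KO. Its order across the columns was that of TXN, lowest in CD24 KO and highest in RCC2 KO, and not that of TXNIP. The log2 differences from Scr were -0.48 in CD24 KO and 0.19 in RCC2 KO.

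**Figure D1:**
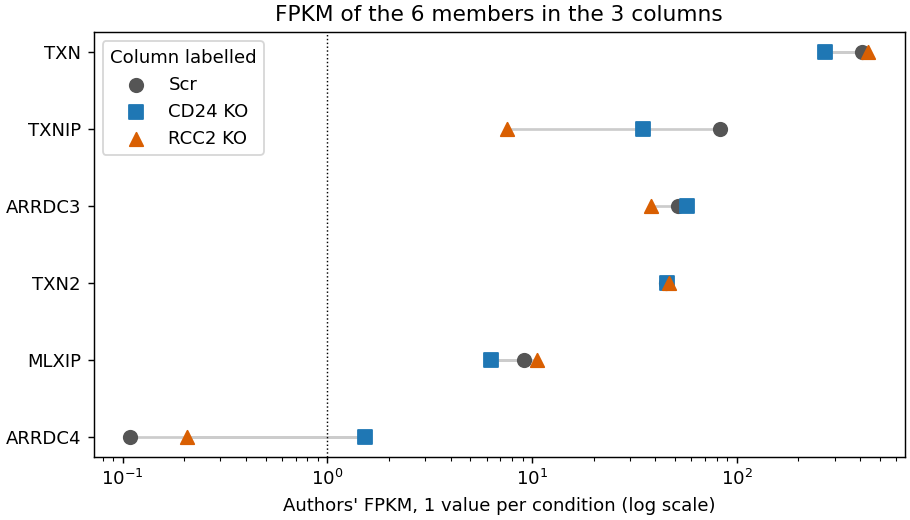
Authors' FPKM of the 6 genes (log scale, 1 value per gene and condition, no error bars because the table holds no value per library). Circles stand for Scr, squares for CD24 KO and triangles for RCC2 KO, and the dotted line marks 1 FPKM. TXNIP falls along the axis from 82.9 (Scr) to 7.52 FPKM (RCC2 KO), ARRDC4 is above 1 FPKM only in CD24 KO, and the 3 points of TXN2 almost coincide.

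Among all 12822 genes compared, 3.03% were at least 2-fold lower and 2.67% at least 2-fold higher in CD24 KO than in Scr. The shares for RCC2 KO against Scr were 0.796% lower and 0.406% higher. For RCC2 KO against CD24 KO they were 4.30% lower and 4.02% higher. The balance of lower and higher genes was not stable, since in CD24 KO against Scr 388 lower and 342 higher genes became 332 and 367 with quantile normalization and 356 and 384 with median centring. The FPKM of all genes summed to 451272 in Scr, 388764 in CD24 KO and 447005 in RCC2 KO, and the part of this in the differences was not tested. Of the 6 members, TXNIP was at least 2-fold lower and ARRDC4 at least 2-fold higher in CD24 KO than in Scr, while in RCC2 KO TXNIP was at least 2-fold lower and the other 5 genes were within 2-fold of Scr. Between RCC2 KO and CD24 KO, TXNIP and ARRDC4 were both at least 2-fold lower in RCC2 KO. Nothing is read from these counts, because the members were chosen with the values known. The comparisons with Scr share the same Scr column, so a high or low Scr value enters both.

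**Figure D2:**
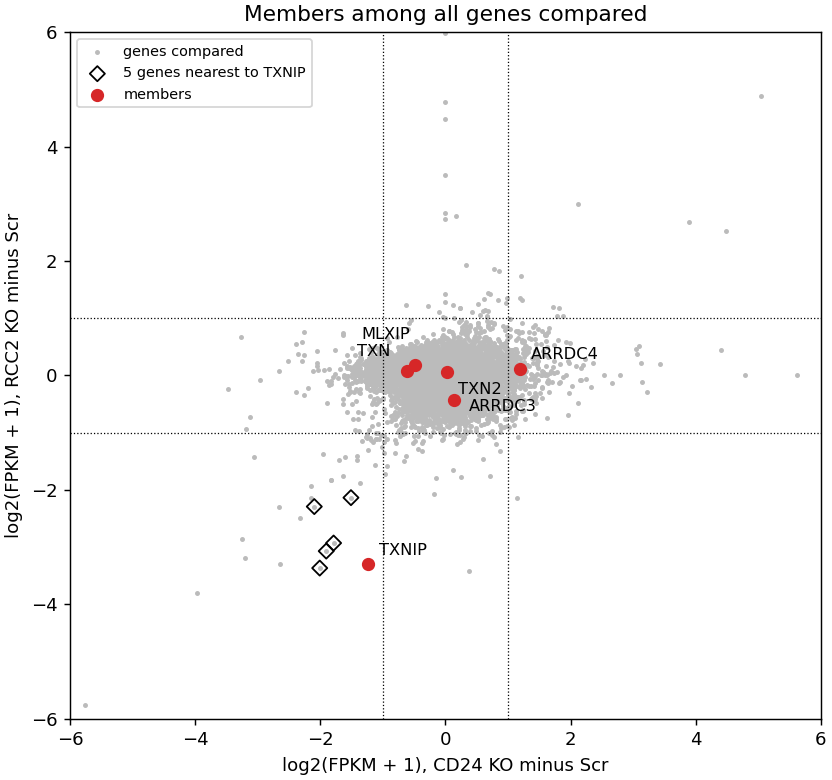
Difference of log2(FPKM + 1) from Scr for each gene compared, CD24 KO on the horizontal and RCC2 KO on the vertical axis, with dotted lines at 2-fold. Grey points are 12802 genes (20 genes lie outside the axes), red points the members and open diamonds the 5 genes nearest to TXNIP. TXNIP, at -1.23 and -3.30, lies apart from the other 5 members, which are all between -0.61 and 1.19 on the horizontal and between -0.43 and 0.19 on the vertical axis.

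The α-arrestins include ARRDC1, ARRDC2 and ARRDC5 as well. ARRDC1, found in vesicles budding from the plasma membrane, was at 10.5 FPKM in Scr, with 13.7 in CD24 KO and 9.49 in RCC2 KO. ARRDC2 was at 5.17, 4.73 and 5.05 FPKM in the same order, and ARRDC5 was listed at 0 in Scr and CD24 KO and at 0.0211 FPKM in RCC2 KO. The table gives ARRDC1 the same locus as ARRDC1-AS1, which was at 18.6, 14.7 and 14.4 FPKM. Summed over the 6 α-arrestins, the FPKM was 150 in Scr, 112 in CD24 KO and 60.2 in RCC2 KO. TXNIP made up 55.2% of this sum in Scr, 31.2% in CD24 KO and 12.5% in RCC2 KO, where ARRDC3 made up 63.0%. The sum and the shares carry the TXNIP values by which the group was chosen, so they are not a separate observation. No count or median over these genes is read, because TXNIP was chosen by its values and ARRDC4 passed the filter only through CD24 KO, where it is high.

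The table gives TXNIP a very wide locus, so the genes listed with it were examined. Its coordinates run from 144146811 to 146467744 on chromosome 1, a stretch of 2321 kb that 27 genes share in the table, although TXNIP itself is a short gene. No build is named for these coordinates in the sources used here, and of 24864 symbols found once in GENCODE 29 only 15.8% overlapped their GRCh38 position, so they do not follow GRCh38. The other members had narrow loci, of which that of ARRDC4 ran from 98503933 to 98517068 on chromosome 15, ARRDC3 from 90664449 to 90716532 on chromosome 5, TXN from 113006092 to 113018920 on chromosome 9, TXN2 from 36863093 to 36877687 on chromosome 22 and MLXIP from 122516634 to 122631894 on chromosome 12. Apart from ARRDC3, these overlapped no other gene of the table. Only 3 of 21208 loci in the table held 27 or more genes. In RefSeq, POLR3GL and HFE2 are the genes of the locus next to TXNIP, and no gene overlaps it. POLR3GL, a subunit of RNA polymerase III, was at 38.5 (Scr), 70.7 (CD24 KO) and 31.1 FPKM (RCC2 KO). HFE2, which encodes hemojuvelin, was listed at 0 in Scr and RCC2 KO and at 0.0885 FPKM in CD24 KO.

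Of the 26 other genes at this locus, 15 were compared. In RCC2 KO, 9 of them were lower than Scr and 6 higher, with a median log2 difference of -0.09, and the count at least 2-fold lower was 0 of 15, against 0.796% of all genes. The lowest was GNRHR2, related to the receptor of gonadotropin-releasing hormone, at 1.95 FPKM in Scr and 0.474 FPKM in RCC2 KO, which was 4.10-fold lower as a ratio of FPKM but -0.999 on the log2(FPKM + 1) scale. With a pseudocount of 0.1 the difference was -1.83, and the count at least 2-fold lower became 1 of 15. In CD24 KO, 2 were lower (POLR3C at -0.31 and RBM8A at -0.11) and 13 higher, with a median of 0.33. Of all genes 47.0% were higher in CD24 KO. The long noncoding RNA LINC01719 alone was at least 2-fold higher there, against 2.67% of all genes. It had 2.81 FPKM in Scr against 7.34 in CD24 KO and 1.38 in RCC2 KO, but was not 2-fold higher with a pseudocount of 5 (0.66). As a ratio of FPKM it was 2.04-fold lower in RCC2 KO than in Scr. POLR3GL was at 0.86 in CD24 KO and passed 2-fold with quantile normalization (1.02). Between RCC2 KO and CD24 KO, 11 of the 15 were lower in RCC2 KO and 4 higher, with a median of -0.49. POLR3GL (-1.16), GNRHR2 (-1.33) and LINC01719 (-1.81) were at least 2-fold lower there, 3 of 15 against 4.30% of all genes. This count was 4 with a pseudocount of 0.1 and 1 with a pseudocount of 5. Of the better expressed genes given this locus, SEC22B, LIX1L, PIAS3 and RNF115 had log2 differences of 0.00, -0.16, -0.17 and 0.52 in RCC2 KO against Scr. In the same comparison RBM8A, POLR3C and POLR3GL were at 0.07, 0.41 and -0.30. GPR89A, NUDT17, ANKRD34A, NOTCH2NL and PDE4DIP lay between -0.40 and 0.28. A further 11 genes, NBPF10, NBPF12, NBPF20, PDZK1, CD160, ITGA10, PFN1P2, LOC100996724, HFE2, ANKRD35 and MIR6736, had at most 0.496 FPKM. As ratios of Scr to RCC2 KO, the 11.0-fold of TXNIP was thus followed by GNRHR2 and LINC01719, both low in FPKM, and the other genes compared at the locus were at most 1.40-fold lower. Whether the authors' estimation moved fragments between TXNIP and these genes cannot be read from 1 value per condition.

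**Figure D3:**
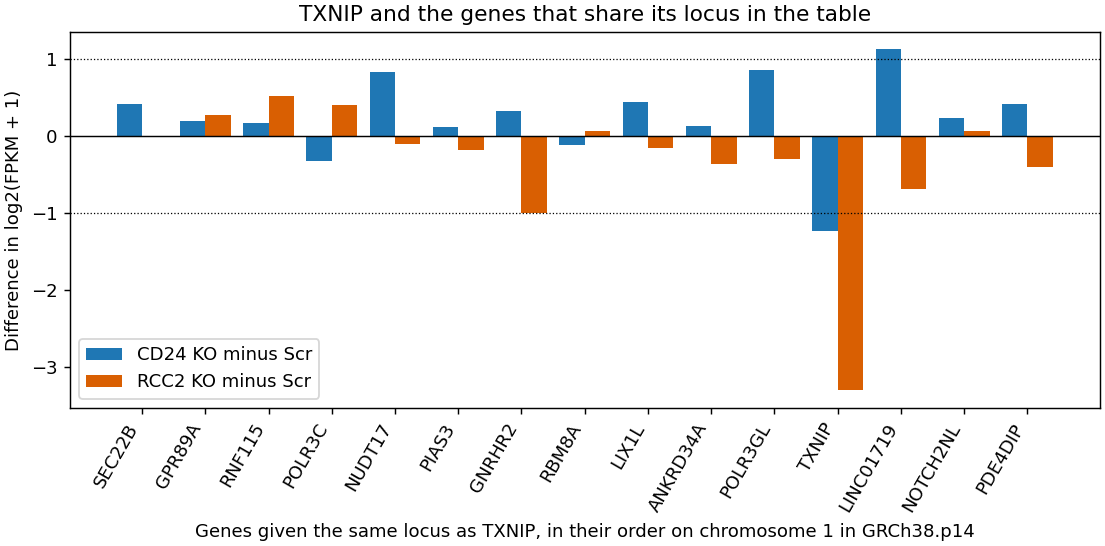
Difference of log2(FPKM + 1) from Scr for TXNIP and 14 of the 15 compared genes with the same locus, in their order along chromosome 1 in RefSeq. Blue bars give CD24 KO and orange bars RCC2 KO, with dotted lines at 2-fold. TXNIP is the single gene below -1 in either column, while GNRHR2 reaches -0.999 in RCC2 KO and LINC01719 is at 1.13 in CD24 KO.

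The genes with a pattern most like TXNIP were sought by the distance between log2 differences from Scr in both knockouts, over 3 columns and among 9377 genes. The nearest were SNORA73B at a distance of 0.67, SCARNA7 at 0.71, RPPH1 at 0.78, HIST1H1E at 1.20 and HIST1H3B at 1.33. All 5 are RNAs that end without a poly(A) tail: a small nucleolar RNA, a Cajal body RNA, the RNA of ribonuclease P and transcripts of replication-dependent histones. TXNIP is a polyadenylated mRNA. RPPH1 was at 165 FPKM in Scr, with 40.3 in CD24 KO and 15.1 in RCC2 KO, and SNORA73B at 71.5, 20.01 and 8.52 FPKM. That they share the order of TXNIP across the columns follows from how they were chosen. How RNA was selected for the libraries bears on such transcripts, and its part in the TXNIP values was not tested. With quantile normalization 4 of the 5 genes were again among the nearest, and RNA28S4, the large ribosomal RNA, took the place of HIST1H3B.

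Several genes of the lists that follow share a locus with others in the table, MLX with PSMC3IP, PRDX1 with MMACHC, TXNRD2 with ARVCF and others, NXN with LOC101927727, and PFKFB3, FASN and ITCH with small RNAs, so their values carry the same uncertainty. Over all genes, 52.9% were lower than Scr in CD24 KO and 50.6% in RCC2 KO, and 0.406% to 4.30% passed 2-fold in a given direction. With such shares nothing is read from a list in which no gene reached 2-fold. Partners of MondoA formed the first list. MLX, the DNA-binding partner, was at 46.8 (Scr), 32.3 (CD24 KO) and 51.7 FPKM (RCC2 KO), so the ratio of MLX to MLXIP was 5.10, 5.13 and 4.88 in the 3 columns. MLXIPL, the paralog known as ChREBP in liver, was at 1.26, 1.95 and 0.634 FPKM. MNT, MXD1 and MXD4, which also pair with MLX, had log2 differences from Scr of 0.60, 0.68 and 0.77 in CD24 KO and of -0.04, 0.35 and 0.01 in RCC2 KO. None of the 6 genes of this list reached 2-fold in any comparison, although MLXIPL did between RCC2 KO and CD24 KO with a pseudocount of 0.1, at -1.48. In CD24 KO their median log2 difference was 0.49, with 4 higher and 2 lower, and in RCC2 KO it was 0.08.

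Of 11 genes listed as glucose-response targets of MondoA or ChREBP, 8 were compared. TXNIP and ARRDC4 are among these 8, so no count or median over them is read. FASN, the fatty acid synthase, was at 48.4 (Scr), 51.0 (CD24 KO) and 28.2 FPKM (RCC2 KO). ACACA, which makes its substrate malonyl-CoA, was at 15.4, 20.4 and 13.2 FPKM in the same order. The log2 differences of FASN and ACACA from Scr were 0.08 and 0.39 in CD24 KO and -0.76 and -0.21 in RCC2 KO. PFKFB3, HK2 and KLF10, which encode a regulator of glycolysis, a hexokinase and a transcription factor, had log2 differences of 0.12, 0.01 and -0.01 in RCC2 KO, near 0 beside the -3.30 of TXNIP. In CD24 KO the same 3 genes were at -0.89, -0.91 and -0.71, and HK2 passed 2-fold with quantile normalization (-1.02) and with a pseudocount of 0.1 (-1.16). PFKFB3 was at 29.9 FPKM in Scr against 15.6 in CD24 KO and 32.7 in RCC2 KO, a difference of 1.02 between the knockouts that was under 1 with quantile normalization (0.91), median centring and a pseudocount of 5 (0.87). PKLR, G6PC and GPD1 were below 1 FPKM in every column, and RGS16 had a log2 difference of -0.46 in both knockouts.

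Genes whose RefSeq promoter holds the same pair of CACGNG matches as TXNIP gave another view, chosen after the values were seen. Of 20 such genes 15 were compared, TXNIP included. In RCC2 KO, 7 of the other 14 were lower than Scr and 7 higher, the lowest being RCN3 at -0.80, and 0 of 14 differed by 2-fold or more, against 0.796% lower and 0.406% higher over all genes, so nothing is read from that 0. In CD24 KO, 10 were lower and 4 higher, against 52.9% of all genes lower. RAN, the GTPase of nuclear transport, was the single gene at least 2-fold lower there, against 3.03% of all genes. It was at 152 FPKM in Scr, with 62.7 in CD24 KO and 152 in RCC2 KO. GFPT1, the entry enzyme of the hexosamine pathway, was at 20.3, 34.8 and 20.9 FPKM.

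Glucose transporters are the cargo of TXNIP and ARRDC4. SLC2A1, which encodes GLUT1, was at 64.3 (Scr), 25.8 (CD24 KO) and 74.0 FPKM (RCC2 KO). Its level was lowest in CD24 KO and highest in RCC2 KO, the column in which TXNIP was lowest, and the log2 differences from Scr were -1.29 and 0.20. The table gives SLC2A1 the same locus as SLC2A1-AS1. SLC2A4, the insulin-responsive GLUT4, was at 2.23, 2.18 and 0.567 FPKM in Scr, CD24 KO and RCC2 KO, a difference of -1.04 in RCC2 KO. SLC2A10 was at 1.05, 3.02 and 0.893 FPKM, a log2 difference of -1.09 between RCC2 KO and CD24 KO. These calls of SLC2A4 and SLC2A10 depended on the processing, since SLC2A4 against Scr was at -0.95 and SLC2A10 between the knockouts at -0.88 with quantile normalization, both were nearer to 0 with a pseudocount of 5 (-0.38 and -0.44), and a minimum of 1 FPKM in every column removed both. Of 9 transporters 7 were compared, with a median of -0.11 in RCC2 KO and 0.02 in CD24 KO, the latter turning to -0.08 with quantile normalization. SLC2A3 was at 0.882 FPKM or lower and SLC2A2 was listed at 0.

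The thioredoxin reductases, which recharge thioredoxin with NADPH, were led by TXNRD1 at 828 FPKM in Scr against 809 in CD24 KO and 741 in RCC2 KO. TXNRD1 thus stood at 2.02 times the level of TXN in Scr, 3.01 times in CD24 KO and 1.70 times in RCC2 KO. The table gives it the same locus as EID3. TXNRD2, the mitochondrial reductase, was at 18.5, 10.9 and 19.1 FPKM, a log2 difference of -0.71 in CD24 KO. TXNRD3 was at 4.47, 4.84 and 3.05 FPKM. No thioredoxin or reductase reached 2-fold in any comparison, and the median of these 5 genes from Scr was -0.03 in CD24 KO, which turned to 0.07 with quantile normalization, and 0.04 in RCC2 KO.

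Peroxiredoxins, which use thioredoxin to remove peroxides, and sulfiredoxin (SRXN1), which repairs them, were all compared. PRDX1, the most abundant, was at 598 FPKM in Scr, with 433 in CD24 KO and 557 in RCC2 KO. In CD24 KO, 5 of these 7 genes were lower than Scr and 2 higher, against 52.9% of all genes lower, and the lowest was SRXN1 at -0.66. Their median was -0.36 against -0.03 over all genes, and -0.16 against 0.003 with quantile normalization. In RCC2 KO, 5 were lower and 2 higher as well, but all lay between -0.13 and 0.10. None reached 2-fold.

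Other clients of thioredoxin include methionine sulfoxide reductases, the kinase ASK1 (MAP3K5), the repair enzyme APEX1 and ribonucleotide reductase. RRM2, the ribonucleotide reductase subunit made in dividing cells, was at 138 (Scr), 40.1 (CD24 KO) and 141 FPKM (RCC2 KO). With a log2 difference of -1.76 in CD24 KO it was the single gene of 9 past 2-fold against Scr. Of all genes 3.03% were at least 2-fold lower in CD24 KO. RRM2B, the subunit that p53 induces, was at 12.0, 17.8 and 11.3 FPKM. Over the 9 genes, 7 were lower in CD24 KO with a median of -0.26, against 52.9% lower and -0.03 over all genes. In RCC2 KO, 3 were lower, against 50.6% of all genes, with a median of 0.06.

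Among 16 thioredoxin-like and glutaredoxin genes, 15 were compared and NME8 was listed at 0. The highest level was that of TXNDC5, a disulfide isomerase of the endoplasmic reticulum, at 133 FPKM in Scr against 89.7 in CD24 KO and 132 in RCC2 KO. It shares its locus with 7 other genes in the table, BLOC1S5-TXNDC5 among them. NXN, nucleoredoxin, which binds dishevelled in Wnt signaling, was at 54.6, 110 and 55.02 FPKM, at least 2-fold higher in CD24 KO than in Scr by the narrowest margin (0.95 on the log2 scale with a pseudocount of 5). GLRX3, which carries iron-sulfur clusters, was at 57.2, 28.99 and 68.8 FPKM, with RCC2 KO at least 2-fold above CD24 KO. TXNDC17, at 15.5, 23.3 and 33.3 FPKM, was the single gene of the list at least 2-fold higher in RCC2 KO than in Scr, against 0.406% of all genes, and shares its locus with KIAA0753 and MED31. Its difference was 1.06, and 0.90 with a pseudocount of 5. The list had medians of -0.22 in CD24 KO, with 9 lower and 6 higher, and 0.01 in RCC2 KO, with 7 lower and 8 higher.

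Ubiquitin ligases of the NEDD4 family bind α-arrestins, and ITCH is the ligase that targets TXNIP for degradation. ITCH was at 20.1 FPKM in Scr, with 26.1 in CD24 KO and 20.04 in RCC2 KO. NEDD4, the highest of the family, was at 69.8, 56.2 and 72.8 FPKM. Of 9 ligases 8 were compared, none reached 2-fold (HECW1 did in CD24 KO with a pseudocount of 0.1, at 1.02), and the median was -0.23 in CD24 KO, beside 0.01 in RCC2 KO. The other genes with an arrestin fold, β-arrestins and relatives of the retromer subunit VPS26, were led by ARRB2 at 47.9, 59.2 and 43.5 FPKM, and the 5 compared lay between -0.45 and 0.49 in CD24 KO and between -0.13 and 0.04 in RCC2 KO.

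Named partners of TXNIP and ARRDC3 closed the set. DDIT4, a stress-induced inhibitor of mTORC1 that binds TXNIP, was at 38.7 (Scr), 62.2 (CD24 KO) and 35.8 FPKM (RCC2 KO). PRKAA1, the catalytic subunit of AMPK, which phosphorylates TXNIP, was at 67.5, 70.0 and 71.4 FPKM. ITGB4, the integrin β4 that ARRDC3 directs to degradation, was at 6.61, 14.6 and 9.40 FPKM, a log2 difference of 1.04 in CD24 KO that was 0.76 with a pseudocount of 5. NLRP3, the inflammasome sensor, had at most 0.0593 FPKM. Of the 7 partners 6 were compared, and their median was 0.06 in CD24 KO, beside 0.17 in RCC2 KO.

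**Figure D4:**
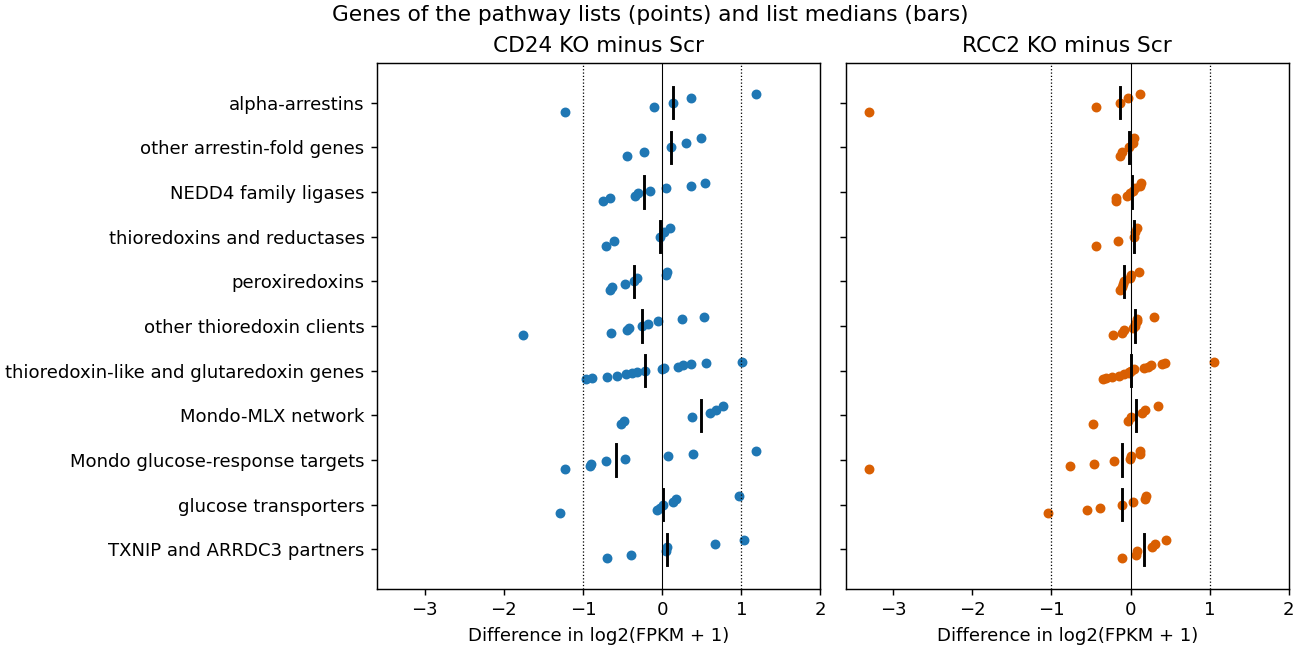
Difference of log2(FPKM + 1) from Scr for the compared genes of 11 lists around TXNIP (points), with the median of each list as a bar and dotted lines at 2-fold. The left panel shows CD24 KO and the right panel RCC2 KO. The TXNIP point at -3.30, which stands in the lists of α-arrestins and glucose-response targets, is the farthest from 0 in the right panel. TXNIP and ARRDC4 stand in both of these lists, whose medians therefore carry genes chosen or compared through their own values, and their bars are not read.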

How the data were processed

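RNA-Seq was deposited for 6 libraries of DU145 cells, 2 per condition. The authors deposited 1 table of FPKM with 1 column per condition, and per the labels HISAT, StringTie, Cufflinks and GATK were used, with no versions or roles given. The build is not given in the sources used here. The labels and the paper's methods name different TruSeq kits, the latter a stranded mRNA kit, and whether counting used strand is not stated. No columns were left unused.

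Genes with at least 1 FPKM in at least 1 column (12822) were compared as differences of log2(FPKM + 1), with a minimum of 2-fold. limma was planned for values per library and could not be run. The members and lists were chosen with earlier results of these data known, and lists were written from general knowledge. Genes named were the members, genes at the locus of TXNIP, genes of each list past 2-fold between any columns or highest in level, and the 5 genes nearest to TXNIP among those above 0 in every column and at least 5 FPKM in 1. Some further list genes were named after their values were seen. No protein sequences were used here, and some genes of the lists and loci are not reported here. Calculations were tested on simulated data. Python 3.11.15, NumPy 2.4.6, pandas 2.3.3 and matplotlib 3.10.9 were used.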

Additional observations from a re-analysis of the deposited data

How the results depend on the processing

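Alternatives were quantile normalization, median centring, pseudocounts of 0.1 and 5, no filter, a minimum of 1 FPKM in every column and, added after the data had been seen, genes above 0 in every column. The settings that differ only in the filter change which genes are compared and cannot alter the difference of a gene that is kept. TXNIP stayed at least 2-fold lower in all 3 comparisons under each of the other settings, which change the scaling or the pseudocount. Its log2 difference in RCC2 KO against Scr ran from -3.44 with a pseudocount of 0.1 to -2.81 with a pseudocount of 5, and in CD24 KO against Scr from -1.25 to -1.07, the latter with quantile normalization. For ARRDC4 in CD24 KO against Scr, pseudocounts of 0.1 and 5 gave 2.96 and 0.35. Over the 6 members, 118 of 123 values stayed on their side of 2-fold and within 1.5-fold of the value reported, including those that a filter could not alter. The other 5 were all for ARRDC4, which in RCC2 KO against CD24 KO was at -2.41 and -0.33 with pseudocounts of 0.1 and 5 and at -0.91 with quantile normalization, and which the minimum of 1 FPKM in every column removed. Of the list counts and medians, 30 of 504 moved, among them genes past 2-fold between RCC2 KO and CD24 KO in the glucose transporters, 3 in the report and 1 with quantile normalization, a pseudocount of 5 or the minimum in every column. The median of the glucose-response targets, which is not read here, was 0 in CD24 KO with no filter, a setting that adds PKLR, G6PC and GPD1, all below 1 FPKM. TXN2 in RCC2 KO against CD24 KO, at 0.04, turned to -0.14 with quantile normalization. With a pseudocount of 0.1, 1262 genes differed by 2-fold or more in CD24 KO against Scr, 443 in RCC2 KO against Scr and 1850 between the knockouts, and with a pseudocount of 5 these counts were 278, 54 and 380, the last with 143 lower and 237 higher in place of 551 and 515. With at least 1 FPKM in every column, 67 genes did so in RCC2 KO against Scr, in place of 154. No paired analysis was possible because the table holds no value per library, and for the same reason no replicate could be left out. The depth is unknown, so no counting error can be put on low values such as those of ARRDC4.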
